A study of Mus musculus with 5 samples.

Results

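Processed pseudogenes of ribosomal proteins are copies of ribosomal protein mRNAs that were reverse transcribed and inserted elsewhere in the genome. Transcripts were taken as members where Gencode M21 gives the gene type processed_pseudogene and the symbol starts with Rpl or Rps and contains -ps. This selected 284 genes, with 1 transcript each, of the 53750 genes in the deposited table of reads per transcript. Of these, 179 carry the name of a large subunit protein (Rpl) and 105 that of a small subunit protein (Rps). The symbol before -ps gave 61 families, and for 59 of them the annotation holds a protein-coding gene of that symbol, called the parent here. The largest families were those of Rpl31 and Rps12, with 23 members each, and 18 families had 1 member.

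The reads were ribosome footprints of mouse embryonic stem cells (mESCs), which are pluripotent and were grown here on gelatin with LIF and serum. All 5 libraries came from cells treated with cycloheximide, which stops elongation, and RNase I was used to digest the RNA that ribosomes did not cover. Standard RIBO-seq, with 3 libraries (biological replicates 1 to 3), collected ribosomes by spinning the lysate over a 30% sucrose layer. AHARIBO RIBO-seq had 2 libraries (biological replicates 1 and 2), for which nascent peptides that had taken up L-azidohomoalanine (AHA), an analogue of methionine, were linked to biotin and pulled down with their ribosomes on magnetic beads. The labels call all 5 samples untreated, and give no cell line, genotype or dose of AHA. The study names 46C as its mouse embryonic stem cell line, and it states an AHA dose for the mESCs of its RNA-seq and proteomics, not for these libraries. Library totals after removal of duplicate reads were 6403651 to 9110668 counts in standard RIBO-seq and 9972892 to 11150527 in AHARIBO RIBO-seq. The level of 1 CPM (counts relative to the library total, scaled with TMM factors) therefore rested on few reads, and 3 counts corresponded to 0.262 to 0.476 CPM, which covers counting error only. All 10 mESC markers examined, such as Pou5f1 and Nanog, stood above 1 CPM in every library, at 43.7 to 276 CPM. Of the markers of other cells, Thy1 and Acta2 (2 of 6 for fibroblasts) and Tubb3 and Map2 (2 of 4 for neurons) were also above 1 CPM in every library, at 2.32 to 36.8 CPM, whereas Col3a1, Postn and Dcx were at 0 to 0.159 CPM. In bulk libraries, fewer cells of a kind and less RNA per cell cannot be told apart.

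Ribosomal proteins form the large and small subunit of the ribosome together with the rRNAs. Their mRNAs are short, abundant and heavily translated, and in mammals they have left many processed copies, which lack the introns of the parent gene and usually its promoter. A copy that still resembles its parent can attract reads that came from the parent mRNA, because a footprint is too short to tell near-identical sequences apart. Reads assigned to such a pseudogene are therefore not by themselves a measure of its own transcription or translation.

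The members were 151 to 1347 nt long, with a median of 456 nt, and 280 of 284 were annotated with a single exon. They were spread over all chromosomes except Y, with 35 members (12.3%) on X, against 890 of 8864 (10.0%) of the other processed pseudogenes. Most of them, 216, lay outside protein-coding genes. A further 20 lay in an intron on the same strand as the host gene and 46 in an intron on the opposite strand, while 2 (Rps23-ps1 and Rps23-ps2) overlapped a coding gene's exon on the opposite strand. The median identity to the parent mRNA was 95.8%, 92 members had an identity of at least 98%, and 95 members kept a reading frame of nearly the full length of the parent protein, of which 25 encoded the parent protein without a change.

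Each transcript was divided into all windows of 30 nt, about the length of a footprint, and the transcripts that hold each window on the same strand were counted. The sequences below, taken from Gencode M21 transcripts on GRCm38, are single coding windows that show the kinds of sharing met among the members. The first pair opens the coding sequence of Rps16, a protein of the small subunit, and is the same in Rps16-ps2. The start codon is in capitals, and the window occurs in 3 deposited transcripts.
Rps16 (chr7:28350804-28350833, plus strand): ATGccgtccaagggtccgctgcagtccgtg
Rps16-ps2 (chr5:129128488-129128517, minus strand): ATGccgtccaagggtccgctgcagtccgtg
The second set comes from Rpl3, a core protein of the large subunit, and its 2 pseudogenes on X. Capitals mark the base at position 20 of the window, counted from its 5′ end, at which Rpl3-ps2 carries the substitution G20A relative to Rpl3. Rpl3 and Rpl3-ps1 share their window, which is in 8 transcripts, whereas that of Rpl3-ps2 is in 1 transcript.
Rpl3 (chr15:80081680-80081709, minus strand): ggatatgttgagaccccacGaggcctccgg
Rpl3-ps1 (chrX:13202842-13202871, plus strand): ggatatgttgagaccccacGaggcctccgg
Rpl3-ps2 (chrX:74170925-74170954, plus strand): ggatatgttgagaccccacAaggcctccgg
The third pair opens the coding sequence of Rpl21 and of Rpl21-ps15, again with the start codon in capitals, and this window occurs in 43 transcripts. STAR at default settings, the aligner of the study, discards a read that matches more than 10 places.
Rpl21 (chr5:146834196-146834225, plus strand): ATGacgaacacaaagggaaagaggagaggc
Rpl21-ps15 (chrX:151215620-151215649, minus strand): ATGacgaacacaaagggaaagaggagaggc
In the fourth pair, the window of Rpl13-ps1 on its annotated strand is the reverse complement of the Rpl13 window. Capitals mark codon 10 of Rpl13 and the bases that pair with it.
Rpl13 (chr8:123102686-123102715, plus strand): CTGaagccccacttccacaaggattggcag
Rpl13-ps1 (chr11:85111153-85111182, minus strand): ctgccaatccttgtggaagtggggcttCAG

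Read levels over the members spanned from 0 to 346 CPM, with a median of 13.2 CPM. On the mean over the 5 libraries, 76 members were under 1 CPM, 51 between 1 and 10 CPM, 124 between 10 and 100 CPM and 33 above 100 CPM. At least 1 CPM was reached in every library by 200 members, and 6 members had no count in any library. The 10 most abundant members together took 18.8% of the members' reads.

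Rpl3-ps1 had the highest level, at 358, 344 and 380 CPM in the standard libraries and 298 and 351 CPM in the AHARIBO libraries. Rpl3, by its most abundant coding transcript, had 328, 317 and 350 CPM in standard and 277 and 324 CPM in AHARIBO RIBO-seq. Rpl3-ps1 thus had 1.08 times the reads of Rpl3 (1.08 to 1.09 over the libraries, as a ratio of CPM not divided by length), at 99.8% identity and with 2.54% of its windows in no other transcript. Its longest reading frame had 61 amino acids against 403 in Rpl3. Rpl3-ps2 had 261, 240 and 276 CPM in standard and 216 and 254 CPM in AHARIBO RIBO-seq, or 0.781 times the reads of Rpl3. With 14.7% of windows of its own and 98.8% identity, Rpl3-ps2 was below Rpl3-ps1 in every library.

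The next members by level resembled their parents in the same way. Rpl10a-ps1, whose parent encodes a large subunit protein, had 212, 199 and 228 CPM in standard and 176 and 203 CPM in AHARIBO RIBO-seq, 0.977 times the reads of Rpl10a. Rps6-ps4 had 179, 174 and 200 CPM in standard and 154 and 173 CPM in AHARIBO RIBO-seq, 0.973 times those of Rps6, the small subunit protein known as a substrate of the S6 kinases. In both, the predicted protein and all parent coding windows that occur in at most 10 transcripts were preserved. Rps16-ps2, whose sequence was 100% identical to the matching stretch of Rps16, had 167, 165 and 195 CPM in standard and 134 and 152 CPM in AHARIBO RIBO-seq, 0.852 times the reads of Rps16. Rpl19-ps11 (mean 173 CPM), Rpl13-ps6 (178 CPM), Rpl14-ps1 (163 CPM), Rpl5-ps1 (161 CPM) and Rps18-ps3 (155 CPM) had 0.947, 0.835, 0.821, 0.680 and 0.826 times the reads of their parents. In the order of CPM, neighbours among these 10 members overlapped across libraries, except that all 5 values of Rpl3-ps1 lay above those of Rpl3-ps2. Per length the order was another, with 369 CPM per kb for Rps16-ps2, 340 for Rps18-ps3, 311 for Rpl10a-ps1, 293 for Rpl19-ps11 and 286 for Rpl3-ps1.

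**Figure D1:**
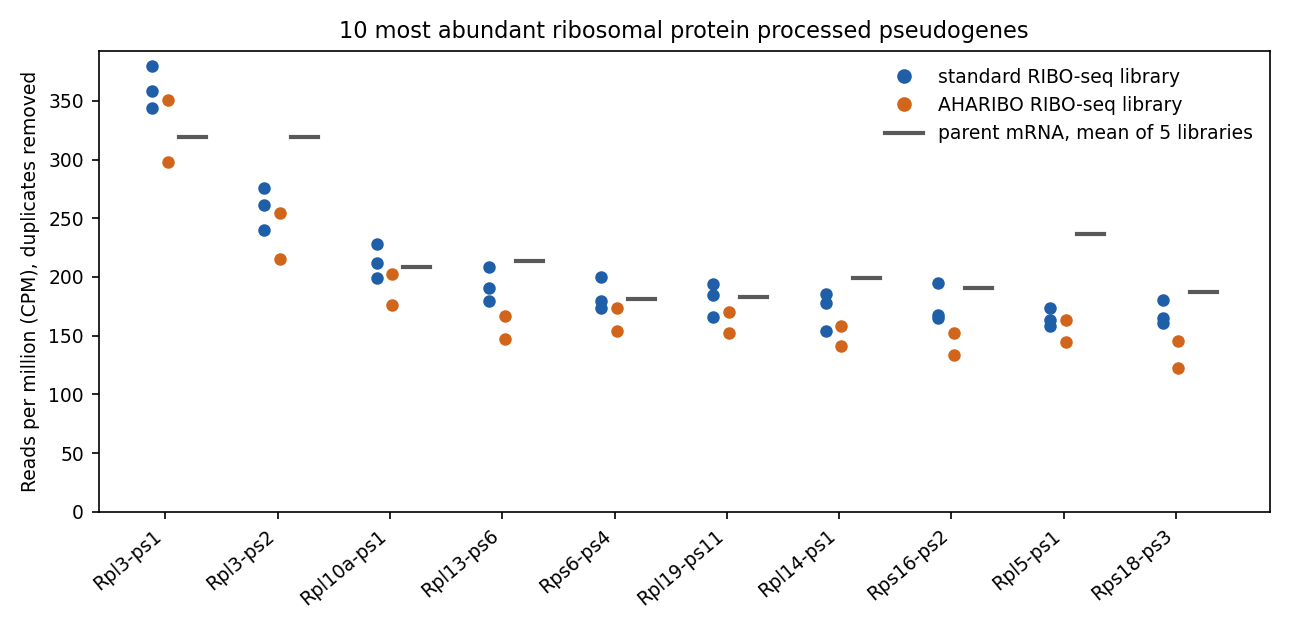
CPM with duplicates removed (vertical axis) of the 10 most abundant ribosomal protein processed pseudogenes (horizontal axis, at most 2 per parent), with a point for each of the 3 standard (blue) and 2 AHARIBO (orange) libraries and a grey line for the parent mRNA's mean. Rpl3-ps1 reaches 380 CPM and lies near or above its parent's mean of 319 CPM, and Rpl5-ps1, with 161 CPM, lies well below its parent's 236 CPM.

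Sequence sharing and read level went together over the members. The 33 members without any window of their own had a median of 68.9 CPM per kb, and the 72 members with up to 25% of such windows had a median of 112 CPM per kb. The median was 66.8 CPM per kb for the 57 members with 25 to 50%, 34.4 CPM per kb for the 53 members with 50 to 75%, and 2.38 CPM per kb for the 69 members with over 75%. Over all 284 members, CPM per kb and the share of unshared windows had a Pearson r of -0.51 and a Spearman rho of -0.46. These values describe the members, which share parents, libraries and sequence and are not independent. Of the 32 members with at least 90% of windows of their own, the median was 0.206 CPM and 2 were above 10 CPM, Rpl13-ps1 with 52.9 CPM and Rpl26-ps3 with 13.2 CPM.

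**Figure D2:**
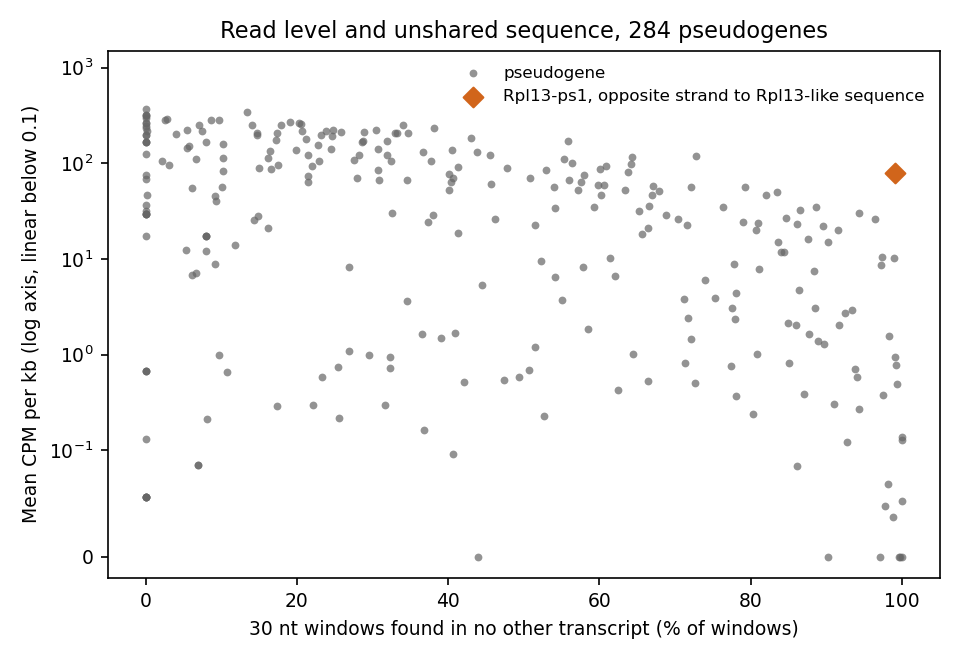
Mean CPM per kb (vertical axis, logarithmic above 0.1 and linear below) against the share of 30 nt windows that occur in no other deposited transcript (horizontal axis, %), with a point for each of the 284 pseudogenes. Levels fall to a median of 2.38 CPM per kb at shares over 75%, where Rpl13-ps1 (orange diamond, 99.1% of windows, 79.2 CPM per kb) stands above the rest.

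The read ratio of a member to its parent's most abundant coding transcript followed how much of the parent it holds. Over the 282 members with a parent, the ratio had a median of 0.158 and ranged from 0 to 1.12, with 77 members above 0.5 and 3 members (Rps13-ps1, Rpl3-ps1 and Rpl34-ps1) above 1. The ratio and the share of parent coding windows held, counted over windows that occur in at most 10 transcripts, had a Pearson r of 0.89 and a Spearman rho of 0.85, given as a description only. The 15 members that held at least 90% of these windows had 30.6 to 346 CPM, with a median of 116 CPM. The 126 members that held none had a median of 0.527 CPM, although the highest of them had 132 CPM. Holding none refers to windows in at most 10 transcripts only. Rpl35a-ps2 was among these members, with 90.1% of all its windows in Rpl35a. The ratio varied little across libraries for most members, since among the 156 members of at least 10 CPM with a parent the highest library ratio was in the median 1.08 times the lowest, and at most 1.69 times. How reads that match several transcripts were counted is not given in the sources used here, and a read counted for a member and its parent would enter both values.

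**Figure D3:**
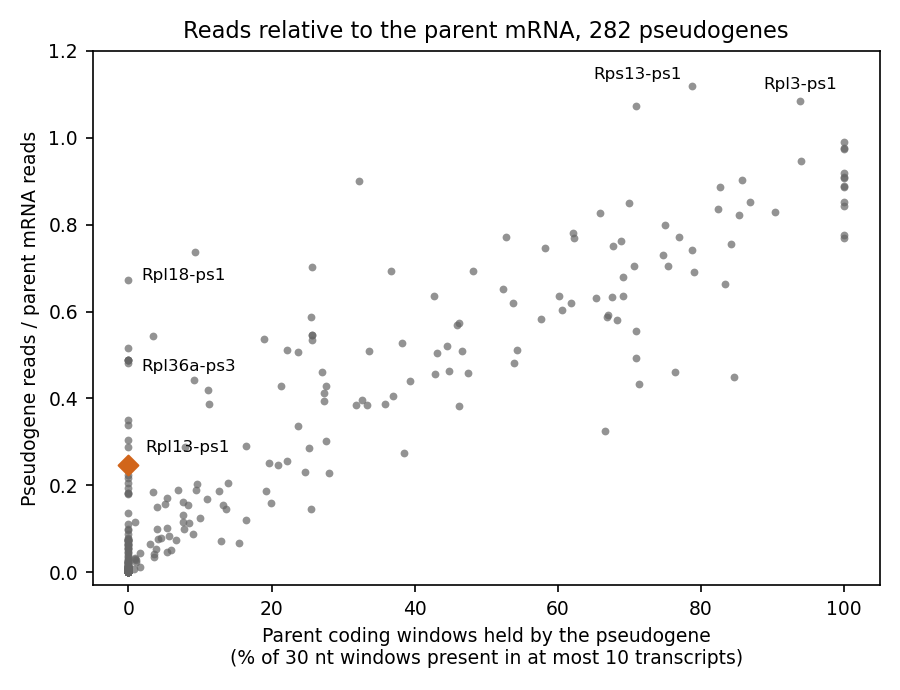
Ratio of pseudogene reads to reads of the parent's most abundant coding transcript, mean of 5 libraries (vertical axis), against the share of the parent's coding windows that the pseudogene holds on the same strand, over windows present in at most 10 transcripts (horizontal axis, %), for 282 pseudogenes. Most points rise with the share, up to 1.12 for Rps13-ps1. Rpl18-ps1 (0.672 against Rpl18), Rpl36a-ps3 (0.516) and Rpl13-ps1 (0.248) are among the members that have reads at a share of 0.

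Several of the members that departed from this relation shared sequence with another gene than the one in their symbol. A protein-coding gene of the same symbol shared the most windows with 245 members, another protein-coding gene did so with 18 members, the 2 tied for 3 members (Rpl13a-ps1, Rpl35-ps1 and Rplp1-ps1), and 18 members shared no window with any protein-coding gene. Rpl36a-ps3 shared 89.7% of its windows with Rpl36al, an intronless paralogue of Rpl36a, and had 0.577 times its reads, at 35.3, 32.6 and 39.3 CPM in standard and 35.6 and 40.8 CPM in AHARIBO RIBO-seq. Rps7-ps2, of 1347 nt, shared no window with Rps7 and 34.1% with Odc1, the gene of ornithine decarboxylase, the first enzyme of polyamine synthesis. It had 47.3, 45.3 and 46.0 CPM in standard and 48.9 and 44.5 CPM in AHARIBO RIBO-seq, 0.268 times the reads of Odc1. The groups overlapped for Rpl36a-ps3 and for Rps7-ps2.

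Rpl13-ps1 was the only member that aligned clearly in reverse to its parent, as in the fourth pair of sequences, while 3 members (Rpl18-ps1, Rps7-ps2 and Rpl17-ps11) aligned in neither direction. It lies at chr11:85111126-85111793 on the minus strand, in an intron of Usp32. Aligned in reverse, it was 92.4% identical to Rpl13, and 99.1% of its windows occurred in no other transcript on the same strand. Nevertheless it had 53.6, 53.5 and 64.9 CPM in standard and 42.3 and 50.3 CPM in AHARIBO RIBO-seq, 0.248 times the reads of Rpl13. The study states that antisense reads were removed, and the origin of the reads on Rpl13-ps1 was not tested.

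The other tested members with the highest share of unshared windows were low. Rps10-ps4, with 97.4% of such windows, had 5.83, 4.75 and 6.82 CPM in standard and 3.67 and 4.89 CPM in AHARIBO RIBO-seq. Rps10-ps3 had a mean of 4.33 CPM, Rpl36-ps1 of 3.08 CPM and Rpl9-ps9 of 0.904 CPM, with 97.2, 98.9 and 98.4% of windows of their own. Against their parents these 4 members had 0.0297, 0.0248, 0.0275 and 0.00637 times the reads, below the median of 0.158 over the 282 members with a parent. All 4 had lower fitted levels in AHARIBO RIBO-seq, and none passed the test (edgeR's quasi-likelihood test, adjusted p = 0.228, 0.262, 0.261 and 0.340).

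In some families whose windows occur in more than 10 transcripts, both pseudogene and parent had few reads. Rpl21, with 90.02% of its coding windows in more than 10 transcripts, had 9.86, 10.0 and 10.5 CPM in standard and 10.2 and 11.4 CPM in AHARIBO RIBO-seq. Its 15 pseudogenes had 0.0424 to 3.99 CPM, and Rpl21-ps15, 99.4% identical to Rpl21 and with 93.4% of windows in more than 10 transcripts, had 2 counts in standard replicate 3 and 0 in the other 4 libraries. Rpl29 (88.0% of coding windows) had a mean of 6.28 CPM, and its 2 pseudogenes had 0.390 and 0.447 CPM. Per kb of coding sequence this came to 21.6 CPM for Rpl21 and 13.1 CPM for Rpl29. The 9 parents without any such coding window had 61.5 to 628 CPM per kb (median 379), and the 12 parents with at least 80% of such windows had 13.1 to 341 CPM per kb (median 174). Over the 59 parents, CPM per coding kb and the share of such windows had a Pearson r of -0.55 and a Spearman rho of -0.54. The share did not fix the level, since Rpl13a (97.1% of coding windows in more than 10 transcripts), Rps24 (88.4%), Rpl9 (89.8%), Rps12 (92.9%) and Rpl10 (94.9%) had 341, 299, 246, 239 and 222 CPM per coding kb. Among members of at least 98% identity, the 15 with at least 80% of windows in more than 10 transcripts had a median of 25.5 CPM, and the 22 with under 20% had a median of 114 CPM.

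Members with the same sequence had the same counts. There were 4 sets, holding 14 members, whose sequences were identical over their whole length, and within each set the counts agreed exactly in all 10 deposited count columns. Rps19-ps1 and Rps19-ps2 both had 715, 677 and 520 counts in standard and 700 and 712 counts in AHARIBO RIBO-seq. The other sets were Rpl35a-ps2, Rpl35a-ps3, Rpl35a-ps4 and Rpl35a-ps6 (453 counts each), Rps12-ps11 to Rps12-ps15 (1 count each) and Rps12-ps6, Rps12-ps17 and Rps12-ps18 (13 counts each). Such members are no separate measurements, and sums over members contain these reads more than once unless they were divided equally. An equal division into whole counts would have to leave no remainder in any set or column, or be rounded. Which of these applies is not stated and was not tested.

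The comparison of AHARIBO with standard RIBO-seq addresses which footprints are recovered through a labelled nascent peptide. A legend of the study places standard RIBO-seq on the input, a word that another legend uses for a lysate containing AHA, but the labels do not say whether the cells of these 3 standard libraries had taken up AHA. If they had not, the labelling cannot be told apart from the pulldown. Of the 284 members, 217 had at least 1 CPM in at least 1 library and were tested, among them members that reached this level in only 1 of the methods. Lower levels in AHARIBO RIBO-seq were called for 22 members and higher levels for 0 (edgeR's quasi-likelihood test, adjusted p under 0.05). Over all 66972 transcripts tested, 2.24% were called lower and 2.27% higher. At an unadjusted p under 0.05, 85 members were lower and 4 higher, where 9.24% and 9.48% of all transcripts were. The groups did not overlap for 71 members that were lower and 14 that were higher in AHARIBO RIBO-seq, with 16.5% and 17.3% over all transcripts. The median log2 fold change of the tested members was -0.19, against 0.00 over all transcripts, and 192 of 217 were below 0. DESeq2 gave an adjusted p to 144 members and called 0 of them in either direction, with a lowest adjusted p of 0.0535. Of all transcripts with an adjusted p, it called 0.666% lower and 0.771% higher. The edgeR count rested on single libraries. It was 0 of 217 tested members without AHARIBO replicate 1, where 0.234% of all transcripts were called lower. It was 2 of 217 (0.922%) without standard replicate 1 and 3 of 211 (1.42%) without standard replicate 3, near the 0.680% and 1.35% of all transcripts. It was 36 of 218 (16.5%) without standard replicate 2 and 56 of 217 (25.8%) without AHARIBO replicate 2, beside 2.23% and 2.97% of all transcripts. With the replicate number as a block it was 2 of 217 (0.922%, Rpl36-ps3 and Rps19-ps13), which was not above the 1.23% of all transcripts. AHARIBO replicate 1 was the lower of the 2 AHARIBO libraries in the members' share of reads and had the most duplicates removed, and its part in the falls was not tested.

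The falls were small. The called members ranged from -0.28 to -0.96 in log2 fold change, with standard errors of 0.08 to 0.26, and adjusted p from 0.00430 to 0.0480. They came from 14 families and comprised 12 of 128 tested Rpl members and 10 of 89 tested Rps members. Rpl13 had the most, with 4 of 5 tested members, followed by Rpl36 with 3 of 7, and Rps2 (2 of 5) and Rps18 (2 of 2) were among the others. The families of Rpl31 and Rps12 had none, with 0 of 16 and 0 of 14 tested members.

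The largest falls were in the family of Rps2, which encodes a protein at the mRNA entry side of the small subunit. Rps2-ps11 had 3.36, 3.42 and 5.08 CPM in standard and 1.93 and 2.00 CPM in AHARIBO RIBO-seq, a log2 fold change of -0.96 (SE 0.26, edgeR adjusted p = 0.0206). Rps2-ps6 had 11.2, 10.0 and 14.4 CPM in standard and 7.17 and 8.79 CPM in AHARIBO RIBO-seq, a log2 fold change of -0.55 (SE 0.15, edgeR adjusted p = 0.0206). In both the AHARIBO libraries lay below all standard libraries. Rps2 itself had 57.3, 53.9 and 65.4 CPM in standard and 40.9 and 49.6 CPM in AHARIBO RIBO-seq, and its log2 fold change of -0.37 (SE 0.09, edgeR adjusted p = 0.00898) was the largest fall among the 59 parents.

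Rpl13-ps5 fell from 10.3, 9.82 and 11.7 CPM in standard to 6.91 and 8.09 CPM in AHARIBO RIBO-seq, by 0.49 on the log2 scale (edgeR adjusted p = 0.0398). Rps19-ps13 fell from 18.4, 16.4 and 17.4 CPM to 10.9 and 14.7 CPM, by 0.46 (edgeR adjusted p = 0.0203). Rplp1-ps1, a copy of the gene for a protein of the ribosomal stalk, fell from 19.4, 17 and 21.3 CPM to 13.7 and 14.98 CPM, by 0.41 (edgeR adjusted p = 0.0272). The groups did not overlap in any of the 3. With the replicate number as a block, Rps19-ps13 stayed called (edgeR adjusted p = 0.0281), whereas Rps2-ps11, Rps2-ps6, Rpl13-ps5 and Rplp1-ps1 did not (edgeR adjusted p = 0.135, 0.142, 0.143 and 0.123). The call of Rps19-ps13 was lost without standard replicate 1, where its log2 fold change was -0.41 (edgeR adjusted p = 0.125), but not without standard replicate 2 or 3. It was also lost with DESeq2 (-0.46, DESeq2 adjusted p = 0.222) and with duplicates kept (-0.15, edgeR adjusted p = 0.479). Without AHARIBO replicate 1 the log2 fold change of Rps19-ps13 was -0.25. These copies had 83.5 to 90.2% of windows of their own, and their parents Rpl13, Rps19 and Rplp1 had log2 fold changes of -0.28, -0.28 and -0.32, with edgeR adjusted p of 0.0285, 0.0296 and 0.0128.

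Among the 10 most abundant members, Rpl13-ps6 (log2 fold change -0.29), Rps16-ps2 (-0.30) and Rps18-ps3 (-0.33) were called lower in AHARIBO RIBO-seq. None of these calls held with the replicate number as a block, where the log2 fold changes were -0.238, -0.222 and -0.285 (edgeR adjusted p = 0.302, 0.340 and 0.175). Rpl3-ps1 had a log2 fold change of -0.15 (SE 0.08, edgeR adjusted p = 0.290) and Rpl5-ps1 one of -0.10 (SE 0.08, edgeR adjusted p = 0.545), and their groups overlapped. Rpl13-ps1 fell by 0.30 on the log2 scale (SE 0.09, edgeR adjusted p = 0.0415), a call that was also lost with the block (log2 fold change -0.215, edgeR adjusted p = 0.305). Rps7-ps2 had a log2 fold change of 0.02 (SE 0.08, edgeR adjusted p = 0.940), beside -0.08 for Odc1.

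With duplicates removed, the log2 fold change of the parent had the same sign as that of the member for 198 of the 216 tested members with a parent. Of the 59 parent mRNAs, each by its most abundant coding transcript, 13 were called lower and 0 higher by edgeR, with a median log2 fold change of -0.17. Over all coding transcripts of the 89 cytosolic ribosomal protein genes, 52 of 236 tested were lower and 0 higher, with a median of -0.20. The other processed pseudogenes had 142 of 3841 tested called lower (3.70%) and 39 higher (1.02%), with a median of -0.07. For 18 of the 22 called members, the parent transcript was also called lower. Member and parent differed in log2 fold change by a median of 0.00 over 216 tested members, with a range of -1.265 to 0.819. Among the 156 members of at least 10 CPM, 127 were within 0.1 of the parent and 147 within 0.2. Of the 60 tested members under 10 CPM, 36 were within 0.2. Since member and parent share sequence, these are not separate observations of the same change.

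As a share of all counts, the members made up 1.08, 1.02 and 1.16% in standard and 0.920 and 1.04% in AHARIBO RIBO-seq. The mean shares were 1.09% ± 0.0707 (SD, n = 3) and 0.980% ± 0.0842 (SD, n = 2), and the groups overlapped (two-sided exact permutation test, p = 0.3, where the smallest p for 10 splits is 0.1). The parents' coding transcripts made up 1.93, 1.85 and 2.07% in standard and 1.64 and 1.85% in AHARIBO RIBO-seq (two-sided exact permutation test, p = 0.2). The ratio of the members' summed counts to those of the parents' most abundant coding transcripts was 1.31, 1.30 and 1.31 in standard and 1.31 and 1.32 in AHARIBO RIBO-seq. On the log2 scale the mean ratio was 0.387 ± 0.0107 (SD, n = 3) and 0.391 ± 0.00929 (SD, n = 2), and the difference of 0.00445 was within the spread of the libraries (two-sided exact permutation test, p = 0.7). With duplicates kept the difference was 0.0332, and the groups separated, with 0.361 to 0.386 in standard and 0.407 to 0.411 in AHARIBO RIBO-seq (two-sided exact permutation test, p = 0.1, the smallest possible). With duplicates removed this log2 ratio lay between 0.375 and 0.398 over all 5 libraries.

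**Figure D4:**
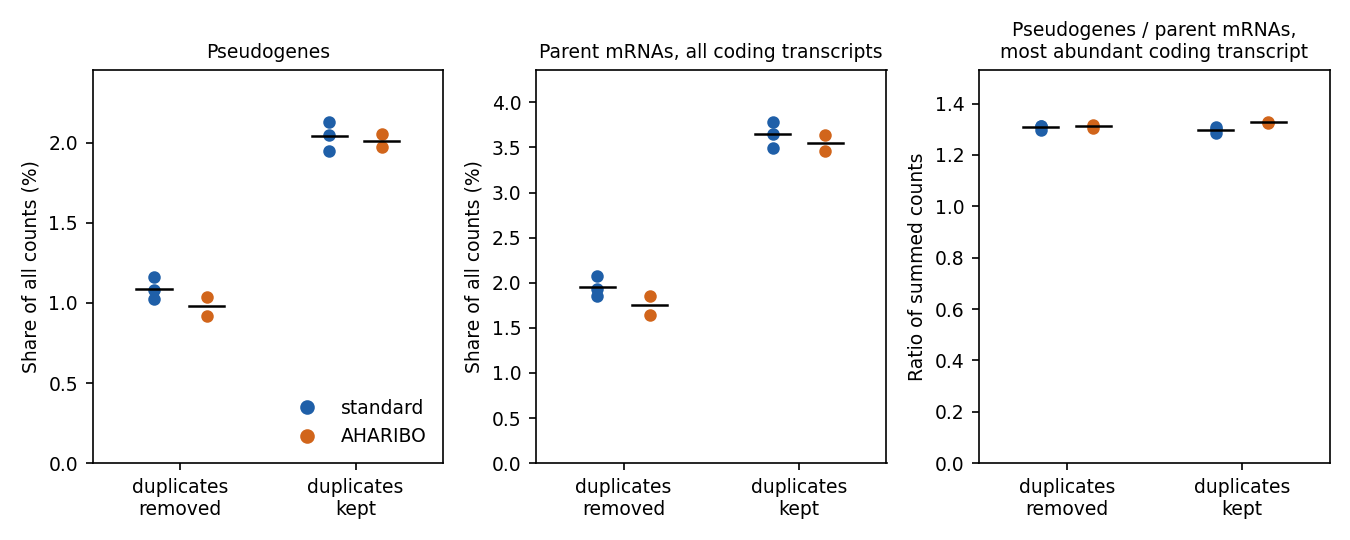
Share of all counts on the pseudogenes (left panel, %) and on all coding transcripts of their parents (middle panel, %), and the ratio of pseudogene counts to those of the parents' most abundant coding transcripts (right panel), with a point for each standard (blue) and AHARIBO (orange) library, bars at the group mean, and both deposited count versions on the horizontal axis. The pseudogene share lies between 0.920 and 1.16% with duplicates removed and between 1.95 and 2.13% with duplicates kept, and the ratio stays between 1.28 and 1.33 in all 5 libraries, with both AHARIBO values above the standard ones where duplicates are kept.

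The direction of the comparison depended on the duplicate reads. Removing duplicates took away 66.5 to 76.6% of the members' reads and 66.7 to 76.3% of the parents' reads, against 43.3 to 47.7% of all reads. AHARIBO replicate 1 had the highest share removed in each case, 76.6% of the members' reads. How duplicates were defined is not given in the sources used here. With duplicate reads kept, the tested members had a median log2 fold change of 0.02, 99 of 209 were below 0, and edgeR called 5 lower and 12 higher, beside 1.51% and 1.92% of all transcripts. The groups did not overlap for 46 lower and 63 higher members in this version, with 17.8% and 19.6% of all transcripts. The estimate was higher with duplicates kept for 191 of the 209 members tested in both versions, by a median of 0.20. Of the parents in this version, 3 of 59 were called lower and 0 higher, 33 were below 0, and the median was -0.03. Of the coding transcripts of all cytosolic ribosomal protein genes, 10 of 232 were called lower and 2 higher, with a median of -0.03. Of the other processed pseudogenes, 63 of 3388 were called lower and 132 higher, with a median of 0.08. The role of the duplicate reads in the falls was not tested further.

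With duplicates kept, higher levels in AHARIBO RIBO-seq were called for 4 copies of Rpl26 (Rpl26-ps2, Rpl26-ps3, Rpl26-ps4 and Rpl26-ps5), 2 of Rps15a, and 1 each of Rpl7, Rpl7a, Rpl23a, Rpl31, Rps24 and Rps27a, with log2 fold changes of 0.36 to 0.70. With duplicates removed, the same 12 members had log2 fold changes of -0.13 to 0.46 and adjusted p of 0.103 or more. Lower levels were called in both versions for 4 members, among them Rps2-ps6, Rps2-ps11 and Rpl36-ps3. In the version with duplicates kept these 3 had log2 fold changes of -0.49, -1.09 and -0.43, with edgeR adjusted p of 0.0306, 0.0306 and 0.0333. Rpl13-ps5 and Rplp1-ps1, called lower with duplicates removed, both had a log2 fold change of 0.00 with duplicates kept.

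**Figure D5:**
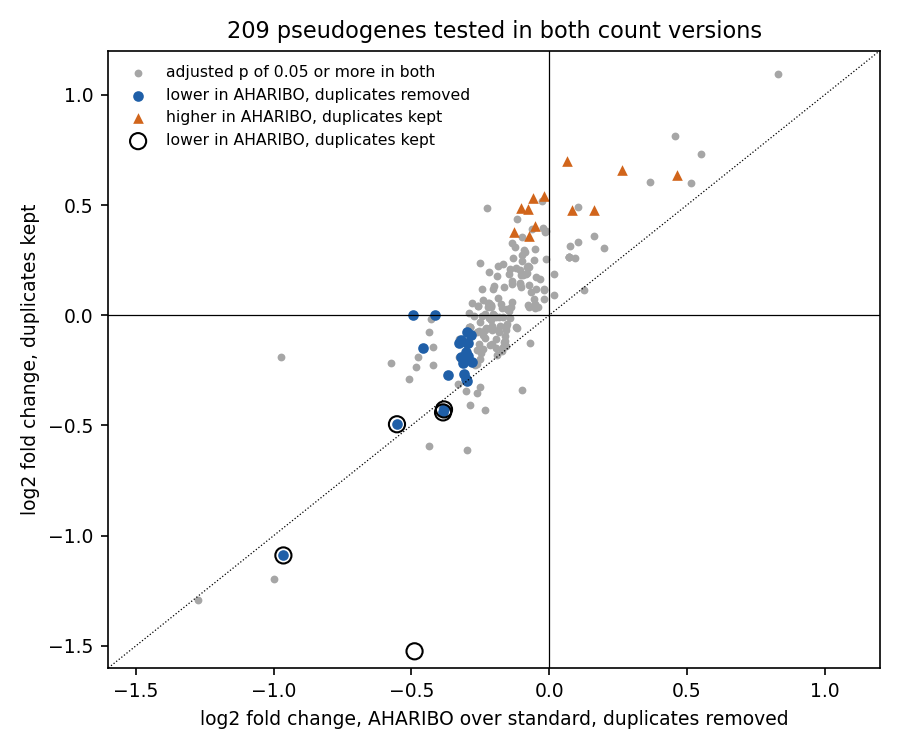
log2 fold change of AHARIBO over standard RIBO-seq with duplicates kept (vertical axis) against that with duplicates removed (horizontal axis) for 209 pseudogenes, with the dotted line at equal values. The 22 members called lower with duplicates removed are blue, the 12 called higher with duplicates kept are orange triangles, and circles mark the 5 called lower with duplicates kept. In all, 191 points lie above the dotted line.

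The threshold of 1 CPM in at least 1 library separated members of like level. Just above it were Rpl31-ps21, Rpl17-ps7 and Rpl7a-ps14, with highest library values of 1.21, 1.11 and 1.11 CPM, and just below it were Rpl26-ps6, Rpl21-ps9 and Rps2-ps2, with 0.999, 0.993 and 0.952 CPM. All 6 had fewer than 1 CPM in at least 3 of the 5 libraries.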

How the data were processed

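Ribosome profiling reads of 5 mESC libraries were analysed. The deposited table holds raw counts for each transcript in 2 sets of columns, one after removal of duplicates and one before it, and the transcript length. Per the study's methods, reads were trimmed with Trimmomatic v0.36, rRNA and tRNA reads were removed, and the rest was aligned by STAR, at its defaults, to the Gencode M17 transcripts. Groups and replicate numbers came from the labels, and 0 columns of per-sample values were left unused.

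CPM values were computed from the counts without duplicates, using TMM factors over all transcripts in edgeR 4.0.16 (R 4.3.3). Transcripts with 1 CPM in at least 1 library entered edgeR's quasi-likelihood test, which had no replicate block, and all their p-values were corrected together (Benjamini-Hochberg). Standard errors are approximate, as they come from the F statistic. An alternative test used DESeq2 1.42.0. For shares of reads, libraries were permuted exactly, two-sided. The script was tested on simulated data. Gene types, sequences and coordinates came from Gencode M21 (GRCm38), to which 135047 of 135276 transcripts matched by identifier without version, and 277 of 284 members had a sequence of the deposited length. Identity is that of the better end-to-end alignment of the member to the parent mRNA or of the parent's coding sequence to the member. A reading frame was taken as full at 95 to 105% of the parent protein's length and at least 90% identity. Named members were the 10 most abundant (at most 2 per parent), the 5 largest falls among called members without overlap, the 5 tested members with the most unshared windows and the 3 on either side of the CPM threshold. Other members were named after their values were seen. The members and lists were chosen with earlier results of these data known. Where footprints lie within a transcript was not analysed here, and some members' values are not reported here.

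The same-numbered libraries of both methods were compared by the correlation of their deviations from the group means, which was 0.0423 for number 1 and -0.0762 for number 2, and the main comparison had no replicate block. With 2 AHARIBO libraries these deviations mirror each other, so the check says little. A legend of the study places standard RIBO-seq on the input, and a shared lysate of same-numbered libraries is not stated. Values with the block are therefore given for the calls of named members with duplicates removed. Calls of parent mRNAs, and calls with duplicates kept, are given without the block.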

Additional observations from a re-analysis of the deposited data

How the results depend on the processing

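The direction of the members' share of reads and of the parents' share was the same under every alternative run, with differences (AHARIBO minus standard, percentage points) of -0.0495 to -0.169 and -0.101 to -0.307 when single libraries were left out, and -0.0718 and -0.143 in the replicate block (mean of the differences within numbers 1 and 2). With duplicates kept they were -0.0304 and -0.0969 (two-sided exact permutation test, p = 0.9 and 0.4), and with 1 transcript per gene in the denominator the members' difference was -0.258 (p = 0.3, exact). The log2 ratio of members to parents, whose main difference was 0.00445, turned sign without standard replicate 2 (-0.00170) and without AHARIBO replicate 2 (-0.00211), ranged up to 0.0110 over the left-out libraries, was 0.00760 in the replicate block and 0.0332 with duplicates kept (two-sided exact permutation test, p = 0.1).

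The 22 members called lower became 0 with DESeq2, 14 when scaled by library size alone, 2 with the replicate block, 5 with duplicates kept, 0 at an adjusted p under 0.01 with a log2 fold change past 1.5, and 0 to 56 when single libraries were left out. The 0 members called higher became 12 with duplicates kept. Over all transcripts, 1501 were lower and 1520 higher, which became 126 and 146 with DESeq2, 821 and 971 with the replicate block, 910 and 1160 with duplicates kept, and 155 to 1972 and 355 to 1857 when single libraries were left out. Scaled by library size alone, 1048 of 67342 transcripts were lower and 1978 higher, beside 14 of 218 members lower and 0 higher. The near balance of both directions over all transcripts was thus not kept under this scaling. With DESeq2 size factors in edgeR it was kept, at 1543 lower and 1419 higher. The windows of members found in no other transcript were 42.9% at 30 nt, 37.9% at 25 nt and 47.1% at 35 nt.

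Of the named members, 7 turned sign with duplicates kept, to log2 fold changes of 0.0266 (Rpl3-ps1), 0.0390 (Rpl3-ps2), 0.0312 (Rps6-ps4), 0.00559 (Rpl14-ps1), 0.248 (Rpl5-ps1), 7.48e-05 (Rpl13-ps5) and 0.000448 (Rplp1-ps1). Rpl7a-ps14 turned to 0.919 with the replicate block. The causes were not tested beyond these settings. Leaving out Rpl13-ps1, an alternative chosen after seeing the data, gave 21 members called lower and a share difference of -0.108. Matching windows on either strand, also chosen after seeing the data, left the Pearson r with the read ratio at 0.89. With 3 and 2 libraries, the exact tests could not go below 0.1, and members near 1 CPM rest on a few counts.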
